A study of Homo sapiens with 27 samples.

Results

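Chromosome 18 carried 41000 of the 764377 peaks in 13 deposited lists from HL-60, a human promyelocytic leukaemia line, and 646 of the 58233 genes in 8 gene tables. The peaks were taken by chromosome name alone. The genes were those whose symbol maps to chromosome 18 in the RefSeq annotation of GRCh38. Each list was split into chromosome 18 and the 21 other autosomes, so the 2 sides of each ratio of chromosome 18 to other autosomes come from the same library and share its depth.

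The study profiled the histone variant H2A.Z and its acetylated form acH2A.Z by chromatin immunoprecipitation (ChIP). It profiled RNA bound by H2A.Z, acH2A.Z and the acetyltransferase Tip60 by RNA immunoprecipitation (RIP). The ChIP lists cover cells labelled siMyc or siNTC, and cells given 100 µM DRB, 0.8 µM actinomycin D (ActD) or DMSO, with 1 H2A.Z and 1 acH2A.Z list each. The treatment times are not given in the labels used here. The 3 RIP lists carry no treatment label. The gene tables hold input DNA from DRB, ActD and DMSO cells, nascent RNA from DRB, ActD, DMSO and untreated cells, and total RNA from untreated cells. Every group is a single library of this 1 line, so there is no replicate check, no test was run, and the intervals given cover counting error only. The input libraries held 440923 to 469547 counts and the RNA libraries held 12600067 to 25167597 counts. No RNA table of siMyc cells was used, so the knockdown itself was not checked here. Promyelocyte markers were present: 5 of 6 reached 1 CPM (the gene count scaled to a common library size) in each RNA library, led by MPO, the myeloperoxidase of neutrophil granules, at 533 CPM in total RNA. The erythroid, lymphoid and epithelial or fibroblast marker lists each summed to at most 2.03 CPM in any RNA library.

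H2A.Z replaces H2A in nucleosomes around transcription start sites and at enhancers. Its acetylation, for which Tip60 (KAT5) is a main enzyme, is a mark of active promoters. HL-60 is known for chromosome gains, among them of chromosome 18, which in normal cells is a gene-poor autosome. DRB blocks the kinases that release RNA polymerase II into elongation, and actinomycin D binds DNA and blocks transcription.

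Promoters on chromosome 18 ranged from those with peaks in most lists to those with none. Below are 5 promoters from the RefSeq table for GRCh38.p14, each from 250 bases before to 50 bases after the start, 5′ to 3′ on the gene's strand, with CG dinucleotides in capitals. They show the contrast in CG content that goes with acH2A.Z peaks. SMAD2 and CD226 have 2 starts each, and the start with peaks in the most lists is shown. MBD1, a methyl-CpG binding protein (chr18:50281718-50282017, minus strand), had a peak in 10 of the 13 lists, all 5 acH2A.Z ChIP lists among them. SMAD2, a transducer of TGF-beta signals (chr18:47930610-47930909, minus strand), had a peak in 6 lists. PMAIP1, which encodes the pro-apoptotic protein NOXA (chr18:59899746-59900045, plus strand), had a peak in 7 lists. CD226, an activating receptor of lymphocytes and other blood cells (chr18:69956750-69957049, minus strand), had a peak in the 3 RIP lists and in no ChIP list. DSG1, a desmoglein of skin (chr18:31317910-31318209, plus strand), had none.
MBD1: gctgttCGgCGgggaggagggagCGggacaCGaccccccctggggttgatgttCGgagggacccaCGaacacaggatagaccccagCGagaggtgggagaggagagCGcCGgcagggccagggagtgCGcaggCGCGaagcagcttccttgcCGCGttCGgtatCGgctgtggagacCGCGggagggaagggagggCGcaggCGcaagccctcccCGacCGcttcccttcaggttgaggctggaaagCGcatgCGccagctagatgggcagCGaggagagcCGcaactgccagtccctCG
SMAD2: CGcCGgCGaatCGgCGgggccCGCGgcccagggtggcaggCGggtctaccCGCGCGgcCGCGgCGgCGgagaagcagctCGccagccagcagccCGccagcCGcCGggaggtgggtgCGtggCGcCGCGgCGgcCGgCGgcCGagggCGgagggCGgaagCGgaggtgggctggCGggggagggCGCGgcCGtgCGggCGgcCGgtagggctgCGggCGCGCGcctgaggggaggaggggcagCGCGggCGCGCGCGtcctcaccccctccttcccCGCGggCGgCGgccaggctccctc
PMAIP1: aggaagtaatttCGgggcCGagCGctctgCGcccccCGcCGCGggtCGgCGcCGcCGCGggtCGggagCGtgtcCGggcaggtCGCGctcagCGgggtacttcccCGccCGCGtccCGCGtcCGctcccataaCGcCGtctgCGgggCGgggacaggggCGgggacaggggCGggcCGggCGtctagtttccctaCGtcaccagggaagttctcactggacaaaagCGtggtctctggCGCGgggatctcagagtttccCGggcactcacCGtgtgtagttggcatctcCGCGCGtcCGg
CD226: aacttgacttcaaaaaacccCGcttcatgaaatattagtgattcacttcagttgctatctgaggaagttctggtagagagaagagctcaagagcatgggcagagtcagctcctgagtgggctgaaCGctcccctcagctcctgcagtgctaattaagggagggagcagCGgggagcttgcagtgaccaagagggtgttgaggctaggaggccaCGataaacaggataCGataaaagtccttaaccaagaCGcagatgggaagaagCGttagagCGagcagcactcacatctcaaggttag
DSG1: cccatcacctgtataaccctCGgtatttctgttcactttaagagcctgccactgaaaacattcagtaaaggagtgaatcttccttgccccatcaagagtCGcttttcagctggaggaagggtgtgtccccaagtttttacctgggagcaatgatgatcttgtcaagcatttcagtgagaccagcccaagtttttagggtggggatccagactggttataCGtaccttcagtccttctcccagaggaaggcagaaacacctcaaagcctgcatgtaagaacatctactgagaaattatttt
These windows hold 27 (MBD1), 51 (SMAD2), 42 (PMAIP1), 8 (CD226) and 3 (DSG1) CG dinucleotides.

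Input DNA of chromosome 18 lay about 2-fold above that of the other autosomes. The chromosome 18 to other autosome ratio of input counts per kb was 2.06 in DRB input (95% exact interval 2.02 to 2.09), 1.94 in ActD input (1.91 to 1.98) and 2.01 in DMSO input (1.97 to 2.04), with a mean of 2.0. Chromosome 18 ranked 1 of 22 autosomes in all 3 libraries. The nearest other autosome was chromosome 13 in DRB and DMSO input, at 1.29 times the median autosome in both, and chromosome 14 in ActD input, at 1.24 times. The excess ran along the chromosome but was uneven. Its 8 windows of 10 Mb lay between 1.66 and 2.3 times the level of the other autosomes, the highest in the first 10 Mb. Windows of 5 Mb from 25, 30 and 65 Mb stood lower, at 1.34, 1.24 and 1.49. The window of 5 Mb from 35 Mb stood at 2.37. Each library is a sum over exons of annotated genes, so intergenic DNA was not measured.

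**Figure D1:**
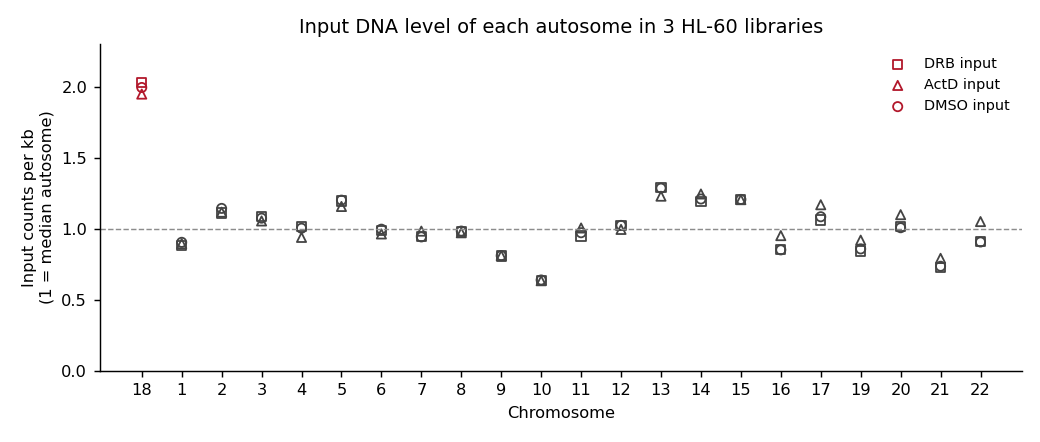
Input DNA level of each autosome, as counts per kb of gene length over the median autosome, in DRB (squares), ActD (triangles) and DMSO (circles) input. Chromosome 18, at the left in red, stands near 2 in all 3 libraries, and every other autosome lies below 1.3.

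The 13 lists differed in how peak density on chromosome 18 compared with that input excess. H2A.Z ChIP density ran above it in 3 lists: 9.41 times the density of the other autosomes in ActD cells (interval 9.08 to 9.76), 4.17 times in siMyc cells (3.92 to 4.43) and 5.83 times in siNTC cells (5.45 to 6.24). These 3 ratios are 4.70, 2.08 and 2.91 times the mean input ratio. The RIP lists ran near it, at 1.94 for H2A.Z, 1.87 for acH2A.Z and 2.02 for Tip60. The acH2A.Z ChIP lists ran below it in DRB, ActD, DMSO and siNTC cells, at 0.760, 1.01, 0.711 and 0.852.

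In numbers of peaks, ActD cells had 3775 H2A.Z peaks on chromosome 18, or 47.0 per Mb, against 5.00 per Mb on the other autosomes, whose highest stood at 20.4. Chromosome 18 thus held 21.3% of the autosomal peaks of that list. DRB cells had 210 H2A.Z peaks on chromosome 18, 1.86 times the density of the other autosomes (1.62 to 2.14). DMSO cells had 40, with a ratio of 1.15 and an interval of 0.815 to 1.57 that includes 1. The lowest normalised tag count of an autosomal H2A.Z peak was 11.2 in DRB, 4.42 in ActD and 17.1 in DMSO cells. The peaks of these 3 lists thus rest on different lower limits. H2A.Z in siMyc cells had 1184 peaks on chromosome 18, or 14.8 per Mb, against 3.54 per Mb elsewhere. In siNTC cells it had 989 peaks, or 12.3 per Mb, against 2.11 per Mb elsewhere. Chromosome 18 ranked 1 of 22 in the siMyc, siNTC and ActD H2A.Z lists, 3 in DRB and 7 in DMSO.

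For acH2A.Z the order was different. Chromosome 18 had 4.11 acH2A.Z peaks per Mb in DMSO cells, against 5.79 on the other autosomes, and ranked 18 of 22. In DRB cells it had 7.6 per Mb against 10.0, and ranked 20. In ActD cells it had 10.6 per Mb against 10.6, and ranked 10. In siNTC cells it had 5.04 per Mb against 5.91. The siMyc list stood apart from these 4, with 9.50 per Mb on chromosome 18 against 4.83 elsewhere, a ratio of 1.96 (1.82 to 2.11) and rank 2. Chromosome 18 had 13.8 RefSeq genes per Mb, rank 21 of 22. Counted per annotated gene in place of per Mb, the DRB, DMSO and siNTC acH2A.Z ratios were 1.1, 1.03 and 1.23, so their direction depends on the denominator.

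The 3 RIP lists held 5151 (H2A.Z), 13232 (acH2A.Z) and 13459 (Tip60) peaks on chromosome 18. Per Mb this is 64.2, 165 and 168, against 33.1, 88.1 and 83.1 on the other autosomes. Chromosome 18 ranked 1 of 22 for RIP H2A.Z, and 2 for RIP acH2A.Z and for RIP Tip60. Chromosome 20 ranked above it in the acH2A.Z and Tip60 lists, at 186 and 185 peaks per Mb. Its mean input level was 1.04 times the median autosome, so RIP density this high also occurred without a 2-fold input excess. Over the mean input ratio, the 3 density ratios come to 0.968, 0.934 and 1.01. The input libraries are of DRB, ActD and DMSO cells, so for the RIP and siRNA cells the input ratio is borrowed.

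Peaks were then split by whether they lay within 500 bases of a RefSeq start, using the 21 autosomes of the promoter table (chromosome 8 was not used here). The H2A.Z density ratio of chromosome 18 to other autosomes was larger away from promoters than at them in all 5 lists. In ActD cells the ratio was 9.47 for the 3724 peaks away from promoters (9.13 to 9.82) and 2.37 for the 51 at promoters (1.75 to 3.15). In siMyc cells it was 5.24 away from promoters and 0.995 at them (0.753 to 1.29). In siNTC cells it was 7.37 away from promoters and 1.31 at them (0.956 to 1.76). In DRB cells it was 2.92 and 1.2, and in DMSO cells 1.96 and 0.992. Promoters held 1.35% of the chromosome 18 H2A.Z peaks in ActD cells, against 5.19% elsewhere, and 62.5% in DMSO cells, against 76.8% elsewhere.

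At promoters acH2A.Z peaks were sparser per Mb on chromosome 18 in all 5 lists, with ratios of 0.532 (DRB), 0.587 (ActD), 0.530 (DMSO), 0.587 (siMyc) and 0.512 (siNTC). Away from promoters these lists ranged more widely: 0.863 (DRB), 1.14 (ActD), 0.870 (DMSO), 2.62 (siMyc) and 1.2 (siNTC). The siMyc excess for acH2A.Z thus also lay away from promoters. For the RIP lists, 1.40% to 1.78% of chromosome 18 peaks were at promoters, and the ratios at promoters were 1.74 (H2A.Z), 1.40 (acH2A.Z) and 1.69 (Tip60).

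**Figure D2:**
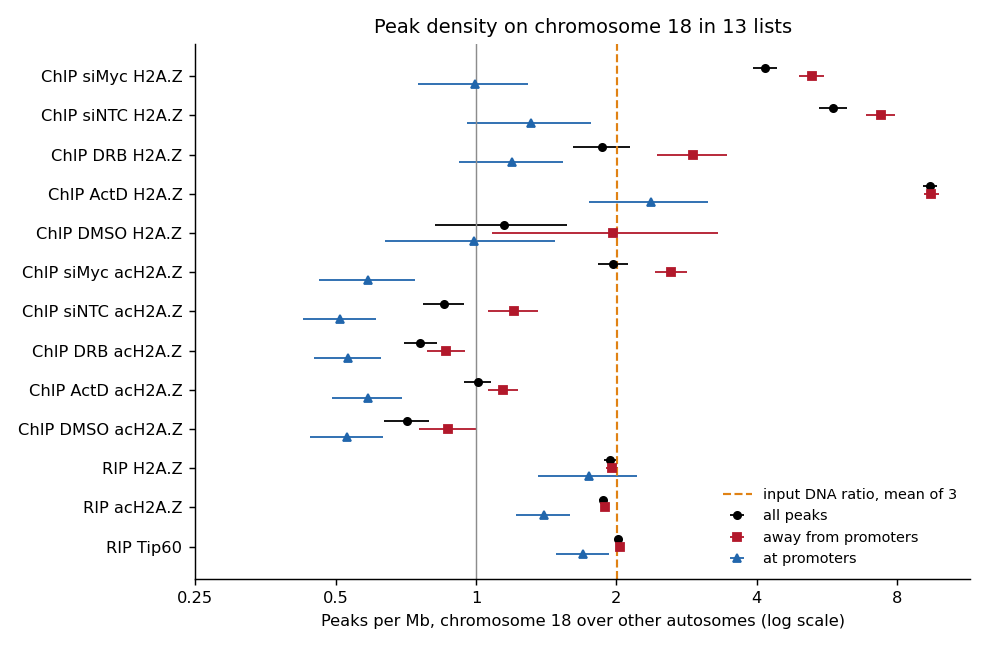
Peaks per Mb on chromosome 18 over the other autosomes (log scale) in each of 13 lists, for all peaks (black circles), peaks away from promoters (red squares) and peaks at promoters (blue triangles); bars are 95% exact intervals of the counts. The dashed line is the mean input ratio of 2.0: all RIP peaks sit near it, the siMyc, siNTC, DRB and ActD H2A.Z peaks away from promoters lie to its right, and the promoter points of the 5 acH2A.Z ChIP lists lie left of 1.

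Windows of 10 Mb elsewhere with input in the chromosome 18 range allow a comparison at like mean input over 10 Mb. There were 6 such windows: 3 on chromosome 5, starting at 0, 30 and 40 Mb, and 1 each on chromosomes 1, 8 and 14. Their median input level was 2.06 times that of the other autosomes, against 2.04 for the 8 chromosome 18 windows. The chromosome 8 window, from 120 Mb, is like chromosome 18 only as a mean. Its level of 1.95 averages parts of 5 Mb at 0.888 and 3.54. The windows on chromosomes 1 and 14 held 21 and 43 genes and at most 15.5 peaks per Mb in any list, so values are given with all 6 and with the 4 that held at least 50 genes.

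H2A.Z in ActD cells was dense in the chromosome 5 windows too. The chromosome 18 windows ranged from 28.1 to 76.9 peaks per Mb, and the chromosome 5 windows had 71.3, 68.8 and 35.6, within that range. The chromosome 8 window had 14.4, below it. Summed, chromosome 18 had 47.0 peaks per Mb against 32.0 in the 6 windows and 47.5 in the 4, a ratio of 1.47 (1.39 to 1.55) or 0.988 (0.935 to 1.05). The 264 windows below the chromosome 18 range had 4.37 per Mb when pooled, but they were mixed. Those on chromosome 5 from 10 Mb (level 1.62) and from 20 Mb (level 1.03) had 854 and 823 peaks. The window on chromosome 6 from 130 Mb (level 1.54) had 852. The highest chromosome 18 window had 768. Windows at 1.54 to 1.60 on chromosomes 2, 13 and 14 had 95 to 285. Dense ActD H2A.Z windows thus also occurred below the chromosome 18 input range. Across the 271 windows of other autosomes, Spearman's rho of input level and ActD H2A.Z density was 0.749, a description only, since neighbouring windows share a chromosome and every window a library.

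H2A.Z in siRNA cells differed from that. In siNTC cells the chromosome 18 windows had 5.3 to 18.6 H2A.Z peaks per Mb, against 1.8, 2.0 and 2.2 in the chromosome 5 windows and 7.6 in the chromosome 8 window. All but 1 chromosome 18 window lay above every window of like input. Windows just below that input range were mixed. Those on chromosomes 12 (from 40 Mb, level 1.53) and 6 (from 130 Mb, level 1.54) had 228 and 199 siNTC H2A.Z peaks. The highest chromosome 18 window had 186. In siMyc cells they had 257 and 198, against at most 218. Windows at 1.54 to 1.62 on chromosomes 2, 5, 13 and 14 had 24 to 52 siNTC H2A.Z peaks. The siNTC ratio of chromosome 18 to windows of like input was 5.25 with 6 windows and 3.63 with 4. In siMyc cells it was 4.82 with 6 and 3.30 with 4. Over windows of 5 Mb both were smaller, at 2.08 in siNTC and 2.13 in siMyc cells. The match of input is looser at this size. The 11 windows elsewhere were held to levels of 1.66 to 2.3, while all 15 chromosome 18 windows were kept, at 1.24 to 2.37. Their median levels were 1.92 elsewhere and 2.05 on chromosome 18. For H2A.Z in DRB and DMSO cells the ratio with 6 windows was below 1, at 0.298 and 0.211. The chromosome 8 window lowers both values, with 42.5 peaks per Mb in DRB cells and 10.9 in DMSO cells. Without it the ratios are 1.36 (1.06 to 1.75) and 0.757 (0.466 to 1.24). Leaving it out moves the siNTC and siMyc H2A.Z ratios to 9.49 and 7.38, and the DRB acH2A.Z ratio given below to 1.37. The 11 windows of 5 Mb include none on chromosome 8. With them the H2A.Z ratio was still below 1, at 0.516 (0.43 to 0.619) in DRB cells and 0.376 (0.25 to 0.557) in DMSO cells. The direction for DRB cells thus depends on the windows used.

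The RIP lists lay between. RIP Tip60 had 121 to 208 peaks per Mb in the chromosome 18 windows, against 139, 129 and 77.9 in the chromosome 5 windows and 130 in the chromosome 8 window, so the ranges overlap. The chromosome 18 ratio for Tip60 was 2.02 with 6 windows and 1.41 with 4 (1.36 to 1.45). For RIP H2A.Z it was 1.96 and 1.34, and for RIP acH2A.Z 1.89 and 1.34. The acH2A.Z ChIP lists of DRB, ActD and DMSO cells gave 0.920, 1.13 and 1.09 with 6 windows, and 0.657, 0.803 and 0.797 with 4. Those of siMyc and siNTC cells were above 1, at 2.88 and 1.77 with 6 windows and 2.03 and 1.29 with 4.

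**Figure D3:**
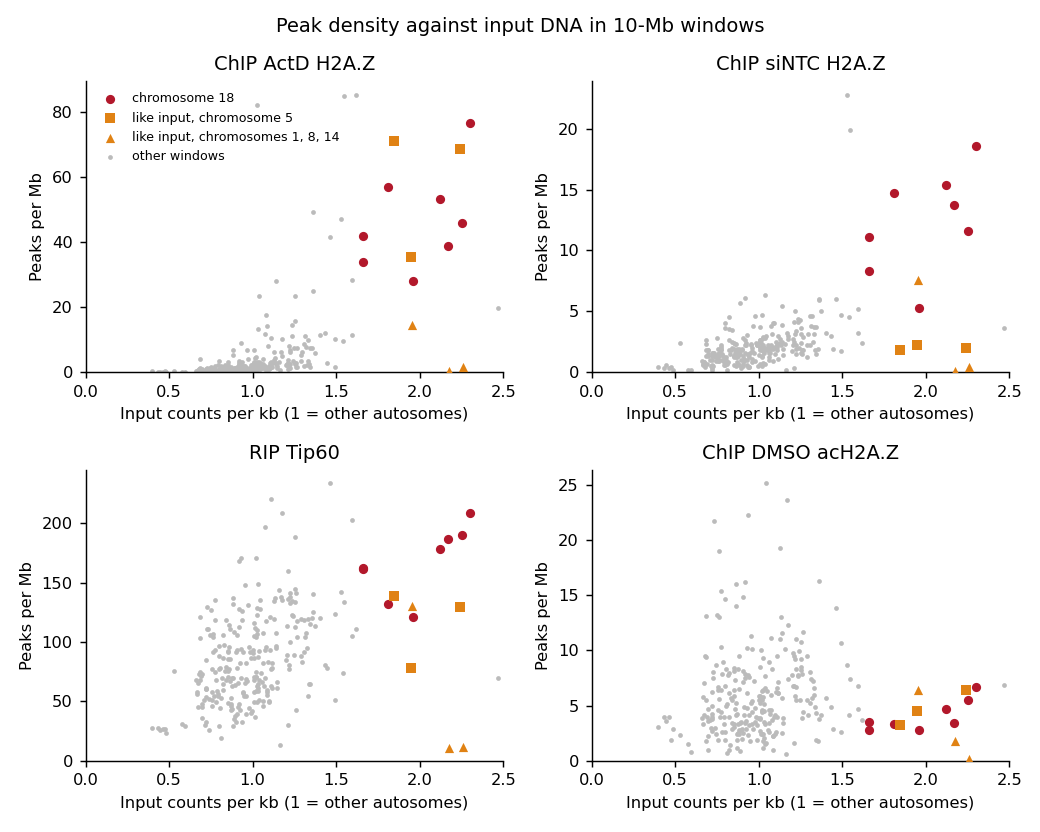
Peaks per Mb against input counts per kb (1 is the level of the other autosomes) in 10-Mb windows, for 4 lists. Red circles are the 8 chromosome 18 windows, orange marks the 6 windows of like input and grey the rest: in ActD H2A.Z the chromosome 5 windows reach 71.3 per Mb, within the chromosome 18 range, while in siNTC H2A.Z they stay at 2.2 or less.

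Across the 22 autosomes, input level and peak density had a Spearman's rho of 0.64 for ActD H2A.Z, 0.63 for siNTC H2A.Z and 0.48 to 0.60 for the RIP lists. Without chromosome 18 these values were 0.59, 0.57 and 0.41 to 0.54. For acH2A.Z in DMSO cells rho was -0.10 with input and 0.88 with gene density. All of these are descriptions over autosomes that share libraries and 3 inputs.

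The strength of the peaks also differed by assay. Peaks of each list were put in 4 equal classes by normalised tag count. In the RIP lists the chromosome 18 ratio was 1.23 to 1.29 in the weakest class and 3.11 (H2A.Z), 2.88 (acH2A.Z) and 3.65 (Tip60) in the strongest, so the ratio of a whole RIP list is near the input ratio while that of its strongest class is not. H2A.Z in ActD cells showed no such gradient, with 8.94 to 10.4 in the 4 classes. H2A.Z in siMyc and siNTC cells had its lowest ratio in the strongest class, at 3.0 and 3.44. Peaks of the ActD H2A.Z list were weak: the median chromosome 18 peak had 6.60 normalised tags and was 500 bases wide, against 6.56 tags and 500 bases elsewhere.

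At promoters, where acH2A.Z peaks are fewer per Mb, the median peak on chromosome 18 held more tags, and so did the control library there. The median promoter peak had 573 normalised tags on chromosome 18 against 239 elsewhere in DRB cells, 544 against 231 in ActD cells and 905 against 413 in DMSO cells. In siMyc cells it had 45.5 against 25.3, and in siNTC cells 716 against 254. The ratio of medians was 1.80 to 2.82 over the 5 lists. Per kb of peak the ratio was 1.89 (DRB), 1.73 (ActD), 1.65 (DMSO), 1.66 (siMyc) and 2.24 (siNTC). The control library's tags per kb at the same peaks had ratios of 2.12, 1.83, 2.07, 1.84 and 1.89. The median fold over control was lower on chromosome 18 in DRB (19.3 against 22.8), ActD (16.1 against 18.5), DMSO (34.3 against 41.9) and siMyc cells (5.45 against 5.91), and higher in siNTC cells (10.2 against 8.40). The files do not name the control library.

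Counted over promoters, 200 of 721 chromosome 18 promoters had an acH2A.Z peak in DMSO cells, 27.7%, against 38.0% of other promoters; 37.8% of all promoters in the table had one. In DRB cells 30.7% did, against 43.1%, with 42.8% over all, and in ActD cells 28% against 35.6%, with 35.4% over all. In siMyc cells acH2A.Z peaks were at 13.2% of chromosome 18 promoters, against 18.1%, with 18% over all, and in siNTC cells at 28.6% against 40.0%, with 39.8% over all. H2A.Z and RIP peaks went the other way, at a larger share of chromosome 18 promoters in each list. H2A.Z peaks in ActD cells were at 64 chromosome 18 promoters, 8.88% (6.90% to 11.2%), against 3.07% elsewhere and 3.2% over all. H2A.Z peaks were at 12.2% against 8.51% in DRB cells, with 8.58% over all, and at 43 promoters or 5.96% against 4.07% in DMSO cells, with 4.11% over all. They were at 11.1% against 8.51% in siMyc cells, with 8.56% over all, and at 9.43% against 5.27% in siNTC cells, with 5.36% over all. RIP Tip60 peaks were at 37.0% of chromosome 18 promoters, against 17.1% elsewhere and 17.5% over all. RIP acH2A.Z peaks were at 38.1% against 20.9%, with 21.2% over all, and RIP H2A.Z peaks at 11.7% against 5.03%, with 5.17% over all. The 721 starts belong to 553 gene symbols, so neighbouring starts can share a peak.

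The promoter shares of DRB, ActD and DMSO cells were split by expression. Among genes with at least 1 CPM of nascent RNA in DMSO cells, 120 of 137 on chromosome 18 had an acH2A.Z peak at a promoter, 87.6% (80.9% to 92.6%), against 86.5% on other autosomes. Among genes under 1 CPM the share was 11.2% (7.00% to 16.8%) against 15.1%, an interval that includes the other autosomes. In DRB cells the expressed genes had 90.4% against 92.0%, and those under 1 CPM 22% (16.5% to 28.4%) against 33.9%. In ActD cells the expressed genes had 88.2% against 83.1%, and those under 1 CPM 17.3% (12.3% to 23.4%) against 26%. For H2A.Z the expressed genes differed: 43.5% of 115 on chromosome 18 against 22.6% in DRB cells, 16.8% of 119 against 7.50% in ActD cells and 19.7% of 137 against 10.9% in DMSO cells. Genes under 1 CPM differed in the same direction. Their H2A.Z shares were 11.5% (7.43% to 16.8%) against 5.36% in DRB cells and 9.69% (5.94% to 14.7%) against 2.21% in ActD cells. In DMSO cells they were 2.81% (0.918% to 6.43%) against 0.942%, an interval that includes the other autosomes. Among the 721 promoters, 87 had an acH2A.Z peak in all 5 ChIP lists, 12.1% against 15.9% of other promoters, and 485 in none, 67.3% against 54.7%. A peak in all 3 RIP lists was at 14, 1.94% against 0.379%, and 167 had no peak in any of the 13 lists, 23.2% against 38.1%.

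Promoter CG content went with acH2A.Z peaks in DMSO cells, on chromosome 18 as elsewhere. Promoters with an acH2A.Z peak in DMSO cells had a median of 29.5 CG dinucleotides in 300 bases on chromosome 18 and 4 without a peak, against 27 and 5 on other autosomes. The printed windows of MBD1, SMAD2 and PMAIP1 belong to the first kind and those of CD226 and DSG1 to the second. For H2A.Z in ActD cells the medians were 12 with a peak and 8 without on chromosome 18, against 22 and 13 elsewhere. For RIP Tip60 they were 8 and 9.5 on chromosome 18, against 13 and 14 elsewhere. The motif CACGTG, an E-box read the same on both strands whose central CG is one of the dinucleotides counted above, was in 6.66% of the 721 chromosome 18 promoters and 7.19% of other promoters. It was in none of the 5 windows printed.

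Few chromosome 18 peaks recurred between the denser H2A.Z lists. An overlap is at least 1 base. Of the 1184 siMyc H2A.Z peaks, 126 overlapped a siNTC H2A.Z peak, 10.6% (13.7% elsewhere), which is 12.7% of the 989 siNTC peaks (23.1% elsewhere). Of the 3775 ActD H2A.Z peaks, 9 overlapped a DMSO H2A.Z peak, 0.238% of the ActD peaks (1.51% elsewhere) and 22.5% of the 40 DMSO peaks (17.2% elsewhere). Between ActD and siNTC the overlap was 1.67% of the ActD and 6.37% of the siNTC H2A.Z peaks, against 1.5% and 3.52% elsewhere. In that pair low overlap was thus not a trait of chromosome 18. In the pairs before it, the share was lower on chromosome 18 than elsewhere, except for DMSO peaks in the ActD list. The share of ActD peaks in the DMSO list is limited by list size. There were 40 DMSO peaks for 3775 ActD peaks on chromosome 18, and 1214 for 13958 elsewhere. That lower share therefore says nothing particular about chromosome 18. acH2A.Z recurred more, on chromosome 18 and elsewhere: of 330 DMSO peaks 93.6% overlapped a DRB peak (95.2% elsewhere) and 90.3% an ActD peak (84.9% elsewhere). These are 50.0% and 35.7% of the DRB and ActD lists on chromosome 18, against 54.5% and 47.7% elsewhere. Of the 40 DMSO H2A.Z peaks 38 overlapped a DMSO acH2A.Z peak, 95% (89.2% elsewhere), while of the ActD H2A.Z peaks 6.04% overlapped an ActD acH2A.Z peak (12.5% elsewhere). The same share was 67.6% in DRB (80.9% elsewhere), 12.1% in siMyc (30.3% elsewhere) and 9.61% in siNTC cells (34.5% elsewhere). RIP Tip60 and RIP acH2A.Z shared 45.7% and 46.7% of their chromosome 18 peaks, against 32.5% and 30.6% elsewhere.

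RNA levels were set beside the DNA gain as the median CPM per kb of genes with at least 1 CPM. Chromosome 18 genes were above those of other autosomes in nascent RNA but not in total RNA. The log2 difference was 0.99 in DRB, 0.53 in ActD, 1.08 in DMSO and 0.64 in untreated nascent RNA, each rank 1 of 22 autosomes, and 0.03 in total RNA, rank 9. The log2 of the mean input ratio is 1.00. The medians were 12 against 6.05 CPM per kb in DRB, 13 against 9.04 in ActD, 18.5 against 8.73 in DMSO and 11.4 against 7.31 in untreated nascent RNA, and 10.0 against 9.79 in total RNA. The other autosomes had a spread (SD) of 0.25 to 0.32 on the log2 scale in the 5 libraries.

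The gene set used changes some of these values. With the genes that had at least 1 CPM in total RNA kept in every library, the log2 differences were 1.18 (DRB), 1.26 (ActD), 0.91 (DMSO) and 0.24 (untreated nascent, rank 6). With every gene that had at least 1 count, untreated nascent RNA turned to -0.97. Chromosome 18 held 2.10% (DRB), 2.22% (ActD) and 2.24% (DMSO) of autosomal nascent counts, 1.19% of untreated nascent counts and 1.39% of total RNA counts, against 1.72% of autosomal genes. The share of chromosome 18 genes reaching 1 CPM in total RNA was 31.3% (27.7% to 35.0%), against 31.9%. Expressed chromosome 18 genes were long, with a median of 49.3 kb against 28 kb in total RNA; its part in the level was not tested.

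**Figure D4:**
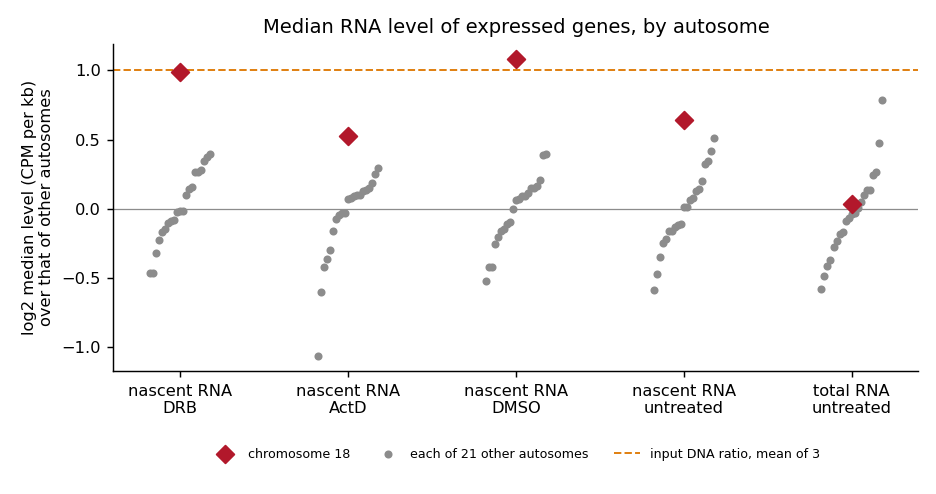
Median RNA level (CPM per kb) of expressed genes on each autosome over that of the other autosomes, on the log2 scale, in 5 libraries. Chromosome 18 (red diamonds) lies above all 21 other autosomes (grey) in the 4 nascent libraries, at 0.99, 0.53, 1.08 and 0.64, and at 0.03 in total RNA; the dashed line is the log2 mean input ratio.

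Single transcripts of chromosome 18 followed different courses. RPL17, a ribosomal protein, had the highest total RNA level per length on the chromosome, at 1893 CPM per kb, but nearby read-through and pseudogene copies make its count uncertain. TYMS, thymidylate synthase, had 206, SNRPD1, a core protein of the splicing snRNPs, 187, and ATP5A1, a subunit of ATP synthase, 173 CPM per kb. MBD1 had 165, and CXXC1, which binds unmethylated CpG and brings in a histone H3 methyltransferase, had 144. In DRB, ActD and DMSO nascent RNA, SNRPD1 had 262, 234 and 468 CPM per kb, so DMSO was above both. ENOSF1, at 137 CPM per kb in total RNA, overlaps TYMS on the other strand, and the strand setting of the counts is not given in the sources used here.

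After DRB most chromosome 18 genes had less nascent RNA relative to the library total. Of 164 genes passing a mean of 1 CPM and 20 summed counts, 97 were at least 2-fold lower than in DMSO (59.1%, with 57.4% of all 12252 genes) and 13 at least 2-fold higher (7.93%, with 9.62% of all). Fold changes are of CPM + 1. The median log2 ratio was -1.28 on chromosome 18 and -1.32 on other autosomes. After ActD 74 of 162 were lower (45.7%, with 53.1% of 12149 genes) and 18 higher (11.1%, with 15.9%). The median was -0.87 on chromosome 18 and -1.18 on other autosomes, rank 2 of 22. Since the median of all genes shifted by -1.32 with DRB and -1.17 with ActD, counts depend on the scale: centred on that median, 40 chromosome 18 genes were higher and 36 lower with DRB, and 56 higher and 33 lower with ActD. In shares this is 24.4% higher and 22% lower with DRB, with 26.4% and 23.2% of all genes, and 34.6% higher and 20.4% lower with ActD, with 31.9% and 27.5% of all genes. Both comparisons share the DMSO library.

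Of 10 listed genes of the cell cycle and DNA upkeep, 7 were lower with DRB and 4 with ActD, and none higher. Of all genes 57.4% were lower with DRB and 53.1% with ActD, and with lists this short a count near those shares, as here, says nothing particular about the list. NDC80, a kinetochore protein, had 11.6 CPM with DRB and 44.3 with ActD, against 140 in DMSO, log2 ratios of -3.49 and -1.64. SKA1, also of the kinetochore, stood at -1.89 and -2.17. POLI, a translesion DNA polymerase, had 0.0697 CPM with DRB and 19.1 with ActD, against 13 in DMSO, so it was low in DRB alone. TYMS, with 275 and 264 CPM against 355, was within 2-fold in both.

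Of 14 listed genes of chromatin and gene expression 11 passed the filter, of which 10 were lower with DRB and 2 with ActD. Of all genes 57.4% and 53.1% were lower. MBD1 had 11.3 CPM with DRB and 103 with ActD, against 111 in DMSO. CXXC1 had 30.6 and 119 CPM against 64.5, log2 ratios of -1.05 and 0.87, so the 2 drugs stood on opposite sides of DMSO. CTDP1, a phosphatase of the polymerase II tail, was lower with both, at -1.87 and -1.61. SETBP1 and ASXL3 had no counts in DRB, ActD or DMSO nascent RNA.

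Among 4 genes of SMAD signalling, SMAD4, the common SMAD, had 7.11 CPM with DRB and 1.51 with ActD, against 43.0 in DMSO. TGIF1, a corepressor, had 0.418 CPM with DRB and 34.6 with ActD, against 33.8, a log2 ratio of -4.62 for DRB only. SMAD2 had 84.1 and 54.7 CPM against 115, and passed 2-fold with ActD only, at -1.06. SMAD7, the inhibitory SMAD, had 0 counts with ActD against 7.14 CPM in DMSO, at least 30.0-fold lower if 3 counts are taken as the floor.

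Of 5 survival genes, PMAIP1 stood highest with ActD. It had 3.28 CPM with DRB and 247 with ActD, against 22.6 in DMSO, or 3109 against 326 counts for ActD, log2 ratios of -2.46 and 3.39. BCL2, the anti-apoptotic founder of its family, had 27.0 and 46.3 CPM against 94.1, log2 ratios of -1.77 and -1.01. MALT1, a protease of NF-kappa-B signalling, was within 2-fold in both, at -0.40 and -0.14.

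Of 9 blood cell regulators 8 passed the filter. With DRB 3 were higher (CD226, PSTPIP2 and YES1) and 3 lower (NFATC1, PTPN2 and SOCS6), where 9.62% of all genes were higher and 57.4% lower. CD226 had 20.1 CPM with DRB and 9.21 with ActD, against 0.416 in DMSO, log2 ratios of 3.90 and 2.85, where DMSO had 6 counts. YES1, a SRC-family kinase, had 75.9 and 28.6 CPM against 33.0. With ActD CD226 alone of these was higher, and NFATC1, PSTPIP2 and SOCS6 were lower, where 15.9% of all genes were higher and 53.1% lower. Of 14 genes of membrane traffic and cytoskeleton 5 were lower with DRB (57.4% of all genes) and 8 with ActD (53.1% of all genes). CHMP1B, an ESCRT-III protein, was the one that was higher with ActD, at 2.11, and lower with DRB, at -2.92.

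The direction of several lists depends on the scale. Before centring, the median log2 ratio with DRB was below 0 in every list but the blood cell regulators, at 0.06, and with ActD it was below 0 in all 6. Relative to the median gene, the list medians with DRB were -0.76 (cell cycle), -0.02 (chromatin), -0.74 (SMAD), -0.40 (survival), 1.38 (blood cell regulators) and 0.74 (membrane traffic). With ActD they were 0.53, 1.03, -0.87, 0.20, 0.23 and -0.11 in the same order, so the SMAD and membrane lists stayed below the median gene with ActD and the other 4 lay above it.

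**Figure D5:**
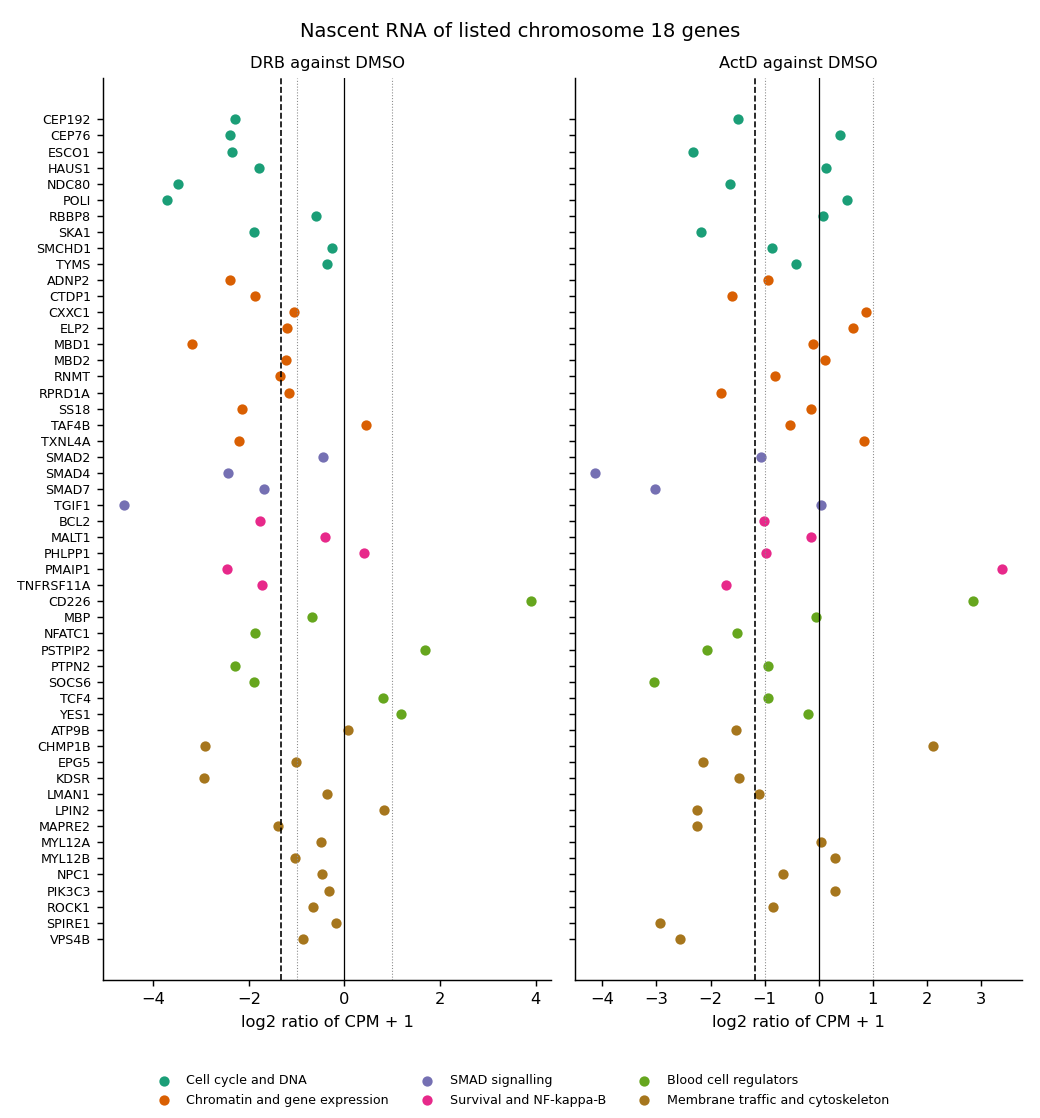
Log2 ratio of CPM + 1 of nascent RNA for listed chromosome 18 genes, DRB against DMSO at the left and ActD against DMSO at the right, coloured by list. Dotted lines mark 2-fold and the dashed line the median of all genes (-1.32 and -1.17); PMAIP1, CD226 and CHMP1B lie beyond 2-fold above DMSO with ActD.

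Among all chromosome 18 genes with at least 100 counts, list members included, the lowest with DRB was ZBTB14, a zinc finger repressor, with 14 counts against 756 in DMSO, followed by TGIF1, PQLC1, VAPA and C18orf54. The highest were RP11-742D12.2, ELOA2, SIGLEC15, CD226 and PARD6G-AS1. SIGLEC15, a sialic acid receptor of the macrophage line, had 229 counts with DRB and 0 in DMSO, at least 76.8-fold higher over a floor of 3 counts. With ActD the lowest was TXNL1, a thioredoxin-like protein, with 15 counts against 1513, followed by ZCCHC2, ZNF236, VAPA and PQLC1. The highest was the read-through gene RPL17-C18orf32, with 1986 counts against 0, which shares exons with RPL17 and C18orf32, so its split of reads is uncertain. It was followed by RN7SL362P, C18orf32, PMAIP1 and LINC00667.

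Untreated nascent RNA against total RNA had 23 of 207 chromosome 18 genes at least 2-fold higher (11.1%, with 9.5% of 13988 genes) and 34 lower (16.4%, with 17.8%). The highest were RPL17-C18orf32 and the small nucleolar RNAs SNORD58A and SNORD58B, which lie in introns of RPL17, then 2 U6 copies whose reads are not unique. The lowest was GAREM1, at -2.27. The 28 chromosome 18 genes of other tissues, such as the desmogleins and cadherins of epithelia, were low: 2 of them reached 1 CPM in total RNA, 1 in untreated nascent RNA and none in DRB, ActD or DMSO nascent RNA, where their sums were 0.488, 0 and 0.208 CPM. The sums were 8.70 CPM in untreated nascent RNA, where 2 of the 28 were at 0, and 5.92 CPM in total RNA, where 20 were at 0.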

How the data were processed

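The peak lists are as the authors deposited them, in HOMER's format. Per the file headers and the submitters' processing notes the build is GRCh38, with STAR 2.5.2b and HOMER among the tools. Each peak carries the authors' normalised tag signal, a score, a fold ratio over a control library and a p-value. No peak was below a fold of 4 or above a p of 0.0001. The gene tables deposited by the authors hold expected counts per gene, not normalised; the quantifier and the strand setting are not given in the sources used here. The DRB, ActD and DMSO nascent tables pack their values in 1 field and were split on spaces.

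Densities are peaks per Mb from the first to the last RefSeq gene of an autosome, with exact (Clopper-Pearson) 95% intervals of the counts. Input levels are summed counts per summed gene length. Windows needed 500 input counts. RNA levels are CPM per kb of effective length (at least 200 bases). Library ratios use CPM + 1 and are called at 2-fold, for genes that average 1 CPM or more and have 20 summed counts. Genes named are those of 7 lists and the 5 highest and 5 lowest per comparison with 100 counts. The members and lists were chosen with earlier results of these data known. With 1 library per group no count model was run. The steps were tested on simulated data. Tools were Python 3.11.15, pandas 2.3.3, NumPy 2.4.6, SciPy 1.17.1 and matplotlib 3.10.9.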

Additional observations from a re-analysis of the deposited data

How the results depend on the processing

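No paired analysis was possible because each group has 1 library. The alternatives of 5-Mb windows, windows with at least 50 genes, windows without chromosome 8, the span between peaks, the distance to a start and the fixed gene sets were chosen after seeing the data; the cause of each shift below was not tested. Per annotated gene, the chromosome 18 density ratio was 6.02 (siMyc), 8.43 (siNTC), 2.69 (DRB), 13.6 (ActD) and 1.66 (DMSO) for H2A.Z, 2.84, 1.23, 1.1, 1.46 and 1.03 for acH2A.Z in that order, and 2.80, 2.70 and 2.91 for RIP H2A.Z, acH2A.Z and Tip60. The DRB, DMSO and siNTC acH2A.Z ratios thereby passed to above 1. Against the 9 autosomes with input within 10% of the median, H2A.Z gave 3.62 (siMyc), 5.02 (siNTC) and 11.7 (ActD). With a fold of at least 8, acH2A.Z gave 1.70 (siMyc), 0.639 (siNTC) and 0.834 (ActD), RIP H2A.Z 1.58 and RIP acH2A.Z 1.84. Counted in base pairs, acH2A.Z gave 1.67 (siMyc), 0.827 (DRB) and 0.938 (ActD), and the RIP lists 2.12, 2.24 and 2.68. With the span from first to last peak, ActD H2A.Z gave 9.02, RIP acH2A.Z 1.83 and RIP Tip60 1.97.

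Mean tags in place of medians put the chromosome 18 ratio over all peaks at 0.637 for siNTC H2A.Z, and above 1 for acH2A.Z in siNTC (1.56, median 0.262), DMSO (1.47, median 0.949) and ActD cells (1.14, median 0.714). Windows with at least 50 genes took ActD H2A.Z to 0.988, DMSO acH2A.Z to 0.797 and ActD acH2A.Z to 0.803; windows of 5 Mb took those 2 acH2A.Z ratios to 0.697 and 0.680. Without the chromosome 8 window DRB H2A.Z turned to 1.36 and DRB acH2A.Z to 1.37. An overlap of 50% of the shorter peak lowered DMSO H2A.Z in DRB H2A.Z to 32.5%, ActD H2A.Z in siNTC H2A.Z to 0.715% and the reverse to 2.73%. It lowered Tip60 in RIP acH2A.Z to 40.2% and the reverse to 41.2%, Tip60 in RIP H2A.Z to 9.89% and the reverse to 26.2%, and RIP acH2A.Z in RIP H2A.Z to 4.34% and the reverse to 11.2%. It lowered ActD H2A.Z in RIP H2A.Z to 5.06% and the reverse to 3.71%, and DMSO acH2A.Z in RIP acH2A.Z to 38.5% and the reverse to 1.07%.

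Input ratios over genes with at least 5 counts were 1.98 (DRB), 1.87 (ActD) and 1.93 (DMSO), and medians over genes of at least 2 kb were 2.17 (DRB) and 2.06 (ActD). RNA levels moved for untreated nascent RNA, to -0.97 with genes of at least 1 count and 0.24 with the total RNA gene set, and for ActD, to 1.27 and 1.26. Centring on the median gene gave 40 higher and 36 lower genes with DRB and 56 and 33 with ActD; rescaling without mitochondrial, ribosomal RNA and polymerase III genes gave 25 higher with DRB. For untreated nascent against total RNA, a pseudocount of 5 gave 7 higher and 5 lower, rescaling 46 higher and centring 22 lower. With 1 library per group, library differences and treatment differences cannot be told apart. The depth of the ChIP and RIP libraries was not worked out here, and the lowest tag count of a peak differed between lists, as given above for H2A.Z.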

Other observations

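Peaks were ranked within each list by the authors' score, which is not the order by tags; in 5 of the 13 lists the second peak held more tags than the first. In DMSO acH2A.Z the first was chr18:62523902-62528183 in ZCCHC2, 60.7-fold over control. In DRB acH2A.Z it was chr18:35289214-35291242 at the start of ZSCAN30, and in ActD acH2A.Z chr18:76495699-76507316 at ZNF516, 11617 bases wide. An intergenic peak 47604 bases from the nearest start, that of TIMM21, came second in DMSO acH2A.Z (chr18:74196127-74196877) and second in ActD acH2A.Z. For H2A.Z, the first peak of both ActD and DMSO cells lay in SMCHD1, a chromatin protein of X inactivation, at 4.05-fold and 15.3-fold over control. In siNTC H2A.Z the first lay at the start of CABLES1. In siMyc H2A.Z it lay 2713 bases from a start of NEDD4L. In RIP acH2A.Z the first 2 peaks both lay in ZNF407, and the second of them was 395-fold over control. In RIP Tip60 the first lay within BCL2.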
